A study of Mus musculus with 4 samples.

Results

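A set of 38 cell cycle genes was followed in ear dermal endothelial cells (ECs) of the mouse, as levels, as the share of wells with a read, and as the number of genes read together in a well. The genes were listed by their role, with earlier results of these data known. All 38 had a read in the data, of 46517 genes counted and 31218 with a read. They comprise 4 inhibitors of cyclin-dependent kinases (CDKs), 6 G1 cyclins and kinases, 12 S-phase genes and 16 genes of G2 and mitosis (G2/M). The cells came from ears of wild-type adult female C57Bl/6 mice, 12 to 26 weeks old by the labels, without treatment and with no other genotype for comparison. The study's methods name the substrain as C57BL/6 J and give a younger range of ages. Ears were cut up and digested with Collagenase IV and DNase I at body temperature, and CD31+/CD45-/Lyve1- cells were sorted into 384-well plates for Smart-seq2, a plate-based method that reads whole transcripts and carries no molecular identifiers. The series holds 2 replicates of 2 plates each, named A and B, or 1536 wells, and the labels speak of pools of 6 mice without making clear whether the replicates share a pool.

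Most endothelial cells of the adult dermis rest outside the cell cycle. In resting cells the retinoblastoma family and the DREAM complex keep E2F target genes of S phase and CHR-containing genes of G2/M silent, while CDK inhibitors of the Cip/Kip and INK4 families hold cyclin-CDK complexes in check. D-type cyclins with Cdk4 or Cdk6 start the release of this block after growth signals, E-type cyclins with Cdk2 and the replication genes follow in S phase, and A-type and B-type cyclins with Cdk1, the Aurora kinases and the checkpoint and kinetochore proteins act in G2 and mitosis.

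Wells were placed in classes by other genes than those described. A well within limits of 600 reads and of 500 to 8000 genes with a read, in which 2 or more of the endothelial genes *Kdr*, *Cdh5* and *Pecam1* were read, was called mural-mixed at 100 CPM (reads per 1000000 reads of the well) or more of the mural genes *Pdgfrb* or *Kcnj8*, lymphatic at 100 CPM or more of *Prox1* or *Lyve1*, and a blood endothelial (BEC) well otherwise. Wells with as much of the leukocyte gene *Ptprc* were set aside as immune. In replicates 1 and 2, respectively, this gave 338 and 363 BEC wells, 13 and 145 lymphatic wells, and 413 and 73 mural-mixed wells. A further 174 wells of replicate 2 had too few endothelial genes, 2 wells were immune and 15 lay outside the limits. The labels call all cells blood vascular endothelial cells. Of the blood endothelial markers that the class rule did not use, *Cldn5*, *Emcn*, *Esam*, *Flt1* and *Tek* were read in 90.8% to 100% of BEC wells of replicate 1 and in 60.1% to 91.2% of those of replicate 2. The replicates stood apart in makeup and depth. Mural-mixed wells made up 53.8% of the wells of replicate 1 and 9.51% of those of replicate 2, the median BEC well had 142614.5 and 92974 reads, the median lymphatic well 117747 and 36000, and the median mural-mixed well 181947 and 13800. In BEC wells the 10 mural markers summed to 1356 and 569 CPM on average and the 7 lymphatic markers to 66.1 and 969 CPM (513 CPM in replicate 2 without the highest well), and the part of such RNA in the levels below was not tested. Because deeper wells show more genes, shares of wells are also given after each well was thinned to 20000 reads, which left out 1 and 69 BEC wells, 0 and 53 lymphatic wells, and 9 and 39 mural-mixed wells.

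In BEC wells, the inhibitors and the G1 genes were the most widely read, S-phase genes came next, and G2/M genes were rare. The median inhibitor was read in 36.7% and 12.9% of BEC wells of replicates 1 and 2, the median G1 gene in 61.5% and 28.7%, the median S-phase gene in 25.9% and 9.37%, and the median G2/M gene in 2.51% and 2.07%. After thinning these medians were 19.0% and 8.50%, 35.2% and 20.9%, 10.2% and 6.12%, and 1.04% and 1.19%. The median G2/M gene ranked at the 42.9th and 44.6th percentile of all protein-coding genes by CPM per kb of exon, against the 84.9th and 86.1st for G1 genes and the 85.4th and 86.1st for inhibitors. In total, 14 of 38 genes were read in at least 10% of BEC wells of both replicates, and 20 averaged at least 10 CPM in both. The order of the roles was the same in both replicates. The median shares were higher in replicate 1 before thinning, and after it they were higher there for all roles except G2/M genes. The part of depth was not tested.

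**Figure D1:**
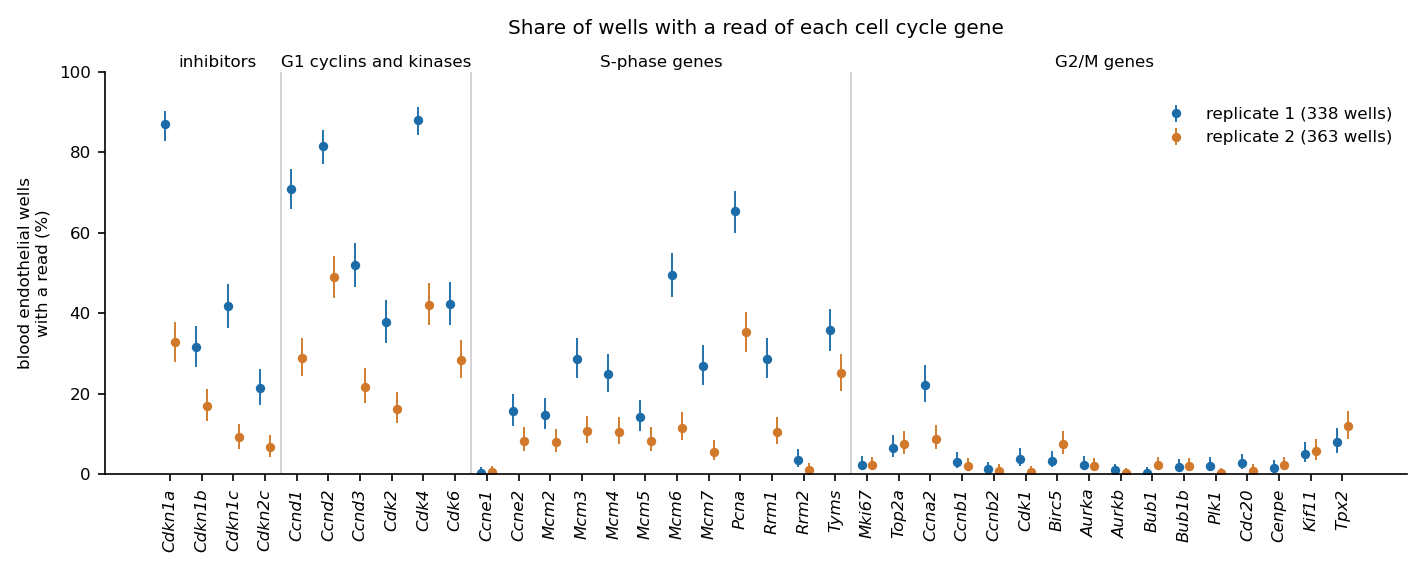
Percentage of blood endothelial wells with at least 1 read of each of the 38 genes, ordered by role, with exact binomial 95% intervals that cover counting error only (blue, replicate 1; orange, replicate 2). Among G2/M genes only *Ccna2* in replicate 1 and *Tpx2* in replicate 2 exceed 10%, while all 6 G1 genes do in both replicates.

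The inhibitor with the widest expression was *Cdkn1a* (p21; chromosome 17, 29090976 to 29100727, mm10), which blocks cyclin-CDK complexes and is induced by p53 and by stress. It averaged 279 and 132 CPM in replicates 1 and 2, and was read in 87.0% (95% interval 82.9 to 90.4) and 32.8% (28.0 to 37.9) of BEC wells. After thinning the shares were 53.4% and 25.2%, with intervals of 47.9 to 58.8 and 20.3 to 30.5 that cover counting error over wells and not the spread between pools. Genes induced by tissue dissociation, a list of 9, summed to 10383 and 7322 CPM in the same wells, so that the higher *Cdkn1a* level was found where these genes were also higher, and their part in it was not tested. *Cdkn1b* (p27; chromosome 6, 134920401 to 134925513), the inhibitor classically tied to resting cells, averaged 35.6 and 34.3 CPM and was read in 31.7% and 16.8% of BEC wells, or 16.02% and 10.2% after thinning. *Cdkn1c* (p57; chromosome 7, 143458339 to 143461050), an imprinted inhibitor, averaged 70.1 and 83.6 CPM but was read in 41.7% of BEC wells of replicate 1 and 9.09% of those of replicate 2. In replicate 2 a single well reached 21637 CPM of *Cdkn1c*, which made up 71.3% of that mean, and without it the mean was 24.04 CPM. *Cdkn2c* (p18; chromosome 4, 109660876 to 109667189), an INK4 protein that binds Cdk4 and Cdk6, averaged 25.3 and 20.9 CPM and was read in 21.3% and 6.61% of wells. All 4 inhibitors were thus read in BEC wells of both replicates, and the mean level of *Cdkn1a* was higher on each plate of replicate 1 than on either plate of replicate 2.

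Among G1 genes, *Cdk4* (chromosome 10, 127063534 to 127067920), the kinase partner of the D cyclins, averaged 242 and 141 CPM and was read in 88.2% and 42.1% of BEC wells, or 64.7% and 34.7% after thinning. The other kinase of the D cyclins, *Cdk6*, averaged 23.3 and 42.5 CPM, in 42.3% and 28.4% of wells. The 3 D cyclins, which pair with these kinases, were all read widely. *Ccnd1* (chromosome 7, 144929931 to 144939925) averaged 221 and 132 CPM in 71.0% and 28.9% of BEC wells. *Ccnd2* (chromosome 6, 127125162 to 127152193) averaged 182 and 182 CPM in 81.7% and 49.0%, and *Ccnd3* averaged 111 and 58.5 CPM in 52.1% and 21.8%. *Cdk2*, the kinase of the E cyclins and A cyclins, averaged 69.8 and 66.9 CPM in 37.9% and 16.3% of wells. *Ccnd2*, *Cdk2*, *Cdkn1b* and *Pcna* had nearly the same mean level in both replicates, whereas *Ccnd1*, *Ccnd3*, *Cdk4* and *Cdkn1a* were higher in replicate 1.

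Compared between genes per length, as mean ± SD of the 2 replicates, *Cdk4* had 58.9 ± 22.001 CPM per kb of exon in BEC wells, *Cdkn1a* 57.8 ± 29.3, *Cdkn1c* 37.7 ± 4.69, *Ccnd1* 37.5 ± 13.4 and *Pcna* 35.3 ± 0.0769. The order of these 5 was not separated, since neighbouring values differed by less than the larger of their SDs. Without the highest well of each gene and replicate, a choice made after seeing the data, *Cdkn1c* came to 22.05 ± 14.5 CPM per kb, *Cdk4* to 57.2 ± 22.5, *Cdkn1a* to 55.6 ± 29.8, *Ccnd1* to 35.1 ± 13.8 and *Pcna* to 34.1 ± 0.438, so that the place and the SD of *Cdkn1c* rested on a single well. Low in the same order stood the mitotic genes *Top2a*, at 0.144 CPM per kb, and *Aurkb*, at 0.0635, which came to 0.0844 and 0.00413 without their highest wells. Summed over genes, D cyclins reached 514 and 373 CPM and the 4 inhibitors 410 and 270 CPM in BEC wells, while the 16 G2/M genes together reached 37.8 and 52.3 CPM, or 31.9 CPM in replicate 2 without the well described further on.

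Inhibitors and D cyclins were also counted well by well, leaving out the well described further on. In replicate 1, 4.44% of BEC wells had no read of any inhibitor and 4.73% none of any D cyclin, while 61.8% had at least 2 inhibitors and 75.1% at least 2 D cyclins. In replicate 2, 51.1% had no inhibitor and 32.6% no D cyclin, and 14.1% and 26.5% had at least 2. After thinning, 27.0% and 61.4% of wells were without an inhibitor and 25.2% and 42.7% without a D cyclin. Among the 90 BEC wells of replicate 1 with at least 200000 reads, 3 (3.33%) had no inhibitor and 2 (2.22%) no D cyclin. Among the 77 such wells of replicate 2, 18 (23.4%) had no inhibitor and 19 (24.7%) no D cyclin. The part of depth in this difference was not tested.

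Of the S-phase genes, *Pcna*, the sliding clamp of the replication fork (chromosome 2, 132249162 to 132253314), was read most widely, at 84.8 and 84.6 CPM in 65.4% and 35.3% of BEC wells, or 46.0% and 32.0% after thinning. *Pcna* also serves in DNA repair. Among genes of the replicative helicase, *Mcm6* (chromosome 1, 128331590 to 128359664) averaged 124 and 51.6 CPM in 49.4% and 11.6% of wells, *Mcm3* 47.4 and 26.1 CPM in 28.7% and 10.7%, and *Mcm4* 27.3 and 31.3 CPM in 24.9% and 10.5%. *Rrm1*, the large subunit of ribonucleotide reductase, averaged 55.9 and 33.4 CPM in 28.7% and 10.5% of wells. Its partner *Rrm2*, whose protein is made in S phase, averaged 2.40 and 0.831 CPM and was read in 12 and 4 wells. Without the well described further on, *Rrm2* averaged 0.150 CPM in replicate 2, in 3 wells. *Tyms*, thymidylate synthase, averaged 42.8 and 47.6 CPM in 35.8% and 25.1%. Of the E cyclins, *Ccne2* averaged 7.17 and 13.2 CPM and was read in 53 and 30 BEC wells, and *Ccne1* was read in 1 and 2 wells.

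G2/M genes averaged between 0.0404 and 16.999 CPM in BEC wells of replicate 1 and between 0.123 and 11.7 CPM in those of replicate 2. *Mki67* (chromosome 7, 135689784 to 135716361), the gene of the proliferation antigen Ki-67, was read in 8 wells of each replicate, 2.37% and 2.204%, at means of 1.59 and 8.21 CPM. *Top2a* (chromosome 11, 98992943 to 99024189), the topoisomerase that untangles replicated chromosomes, was read in 22 and 27 wells, 6.51% and 7.44%, at 0.479 and 2.11 CPM, and 20 wells of each replicate had 1 read only. Of the 7 *Mki67* wells of replicate 2 that remain when the well described further on is left out, 5 had no other G2/M gene and none had more than 1, including the well with the most *Mki67*, 156 of 107085 reads or 1457 CPM. In replicate 1 each of the 8 wells had 1 or 2 others, and the highest stood at 309 CPM. With the highest well of each replicate left out, *Mki67* averaged 0.678 and 4.21 CPM and *Top2a* 0.428 and 1.09 CPM.

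The G2/M gene with the widest reads in replicate 1, *Ccna2* (cyclin A2; chromosome 3, 36564865 to 36572150), overlaps *Exosc9*, a gene of the RNA exosome on the other strand, by 863 bases, and the libraries do not keep the strand. Of the BEC wells with a *Ccna2* read, 73 of 75 (97.3%) and 27 of 32 (84.4%) also had *Exosc9* reads, against 21.3% and 7.55% of the wells without *Ccna2*. Reads of the 2 genes cannot be told apart where they overlap, so the *Ccna2* share of 22.2% and 8.82% is uncertain. Another 7 of the 38 genes overlap a protein-coding gene, namely *Cdc20*, *Ccne2*, *Mcm7*, *Ccnd1*, *Ccnd3*, *Cdk2* and *Cdk4*, and reads in those overlaps cannot be told apart either.

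To show the elements through which S-phase and G2/M genes are known to be held silent in resting cells, 250 bases upstream of the RefSeq start site (GRCm38.p6) were searched on both strands for the CHR (TTTGAA or TTCGAA), the CCAAT box (CCAAT) and E2F sites (TTTCCCGC, TTTGGCGC, TTTCGCGC or TTTGCCGC). Windows were at hand for 30 of the 38 genes, 34 windows in all, because some genes have more than 1 start. A CHR was found in 7 of 13 G2/M windows (53.85%), 2 of 11 S-phase windows (18.18%) and 0 of 10 windows of G1 genes and inhibitors, against 17.15% of 32851 windows of all genes. CCAAT boxes were found in 12 of 13 G2/M windows (92.31%), 9 of 11 S-phase windows (81.82%), 2 of 5 G1 windows (40%), 1 of 5 windows of inhibitors (20%) and 33.85% of all windows, and both elements together in 7 of 13 G2/M windows, 2 of 11 S-phase windows and 6.021% of all. E2F sites were found in 3 of 11 S-phase windows (27.27%), 1 of 5 G1 windows (20%), 1 of 13 G2/M windows (7.692%) and 1.86% of all. These matches are a description of letters and not of binding. 5 windows are shown, 5′ to 3′ along the gene, because *Mki67* and *Top2a* are common markers of dividing cells, the levels of *Cdc20* and *Bub1* in replicate 2 rested mostly on the well described further on, and *Mcm6* had the most E2F matches. They lie on the minus strand, at chr7:135716380-135716629 for *Mki67*, chr11:99024190-99024439 for *Top2a*, chr4:118437344-118437593 for *Cdc20*, chr2:127831860-127832109 for *Bub1* and chr1:128359706-128359955 for *Mcm6*. Capitals mark matches on either strand, and the first E2F matches of *Mcm6* overlap each other.
Mki67: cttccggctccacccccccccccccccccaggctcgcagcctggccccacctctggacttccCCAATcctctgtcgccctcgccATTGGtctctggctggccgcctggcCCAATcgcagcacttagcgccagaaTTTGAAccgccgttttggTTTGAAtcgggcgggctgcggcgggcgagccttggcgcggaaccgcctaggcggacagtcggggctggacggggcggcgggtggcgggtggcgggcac
Top2a: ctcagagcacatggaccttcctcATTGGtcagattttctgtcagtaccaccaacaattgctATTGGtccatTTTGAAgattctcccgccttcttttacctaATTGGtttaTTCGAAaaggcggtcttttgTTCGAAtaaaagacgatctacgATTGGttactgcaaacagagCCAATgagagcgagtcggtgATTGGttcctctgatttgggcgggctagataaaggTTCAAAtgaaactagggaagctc
Cdc20: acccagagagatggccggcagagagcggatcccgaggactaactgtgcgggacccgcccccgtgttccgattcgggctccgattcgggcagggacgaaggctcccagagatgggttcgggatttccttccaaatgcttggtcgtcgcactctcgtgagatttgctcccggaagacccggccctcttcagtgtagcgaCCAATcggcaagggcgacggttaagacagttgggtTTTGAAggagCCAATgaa
Bub1: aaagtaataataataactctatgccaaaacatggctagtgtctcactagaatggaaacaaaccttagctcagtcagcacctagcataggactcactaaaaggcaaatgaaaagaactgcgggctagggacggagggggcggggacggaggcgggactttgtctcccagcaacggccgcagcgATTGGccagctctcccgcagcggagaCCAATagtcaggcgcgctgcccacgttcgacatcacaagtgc
Mcm6: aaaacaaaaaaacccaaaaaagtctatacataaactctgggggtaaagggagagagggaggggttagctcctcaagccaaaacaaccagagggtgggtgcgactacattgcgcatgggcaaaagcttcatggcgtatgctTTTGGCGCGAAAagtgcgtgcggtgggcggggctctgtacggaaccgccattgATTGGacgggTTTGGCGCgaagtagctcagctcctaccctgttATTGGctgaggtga

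*Top2a* had 4 CHR and 6 CCAAT matches and *Mki67* 2 and 3, while *Bub1* had 2 CCAAT matches and no CHR in this window, and *Mcm6* had 3 E2F matches. The windows of the widely read *Ccnd3* and *Cdk2* hold no CHR.

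Cells in G2 or mitosis are known to raise these genes together, so wells were searched for at least 8 of the 16 with a read. In BEC wells of replicate 1, 52.1% had none, and the most in a well was 4. In replicate 2, 62.5% had none, 1 well had 13, and the next had 4. The share with at least 8 was thus 0 of 338 in replicate 1, which allows up to 0.888%, and 1 of 363 or 0.275% (95% interval 0.00697 to 1.53) in replicate 2. Over both replicates it was 1 of 701 BEC wells, 0.143% (0.00361 to 0.792). None of the 13 and 145 lymphatic wells reached 8, which allows up to 23.1% and 2.07%, and none of the 413 and 73 mural-mixed wells, which allows up to 0.726% and 4.11%. These limits count shallow wells too. After thinning, 92 lymphatic and 34 mural-mixed wells of replicate 2 remained, none with 8, which allows up to 3.26% and 8.82%. All intervals and limits cover counting error only.

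**Figure D2:**
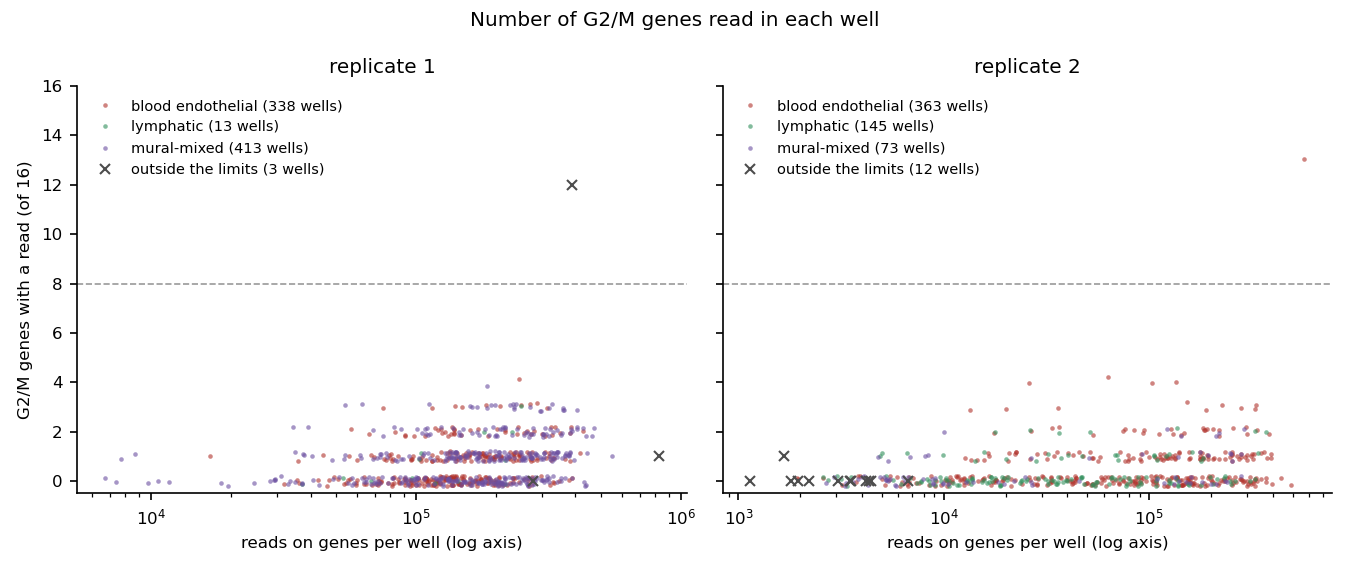
Number of the 16 G2/M genes with a read in each well against the reads of the well on a log axis, for each replicate, with wells coloured by class, shifted slightly on the vertical axis so that points do not hide each other, and crosses for wells outside the limits. The dashed line marks 8 genes, which 1 blood endothelial well of replicate 2, with 13, and 1 well outside the limits in replicate 1, with 12, exceed.

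S-phase genes were less clear-cut. At least 6 of 12 were read in 27 BEC wells (7.99%) of replicate 1 and 3 (0.826%) of replicate 2, in 42 (10.2%) and 0 mural-mixed wells, and in no lymphatic well. After thinning, 2 BEC wells (0.593%) of replicate 1, 1 (0.340%) of replicate 2 and 2 mural-mixed wells of replicate 1 (0.495%) remained, so most of these wells reached 6 genes at full depth only. The BEC well of replicate 2 was the one with 13 G2/M genes. The other 4 were looked at after their values were seen, and had at most 3 G2/M genes. Of these, the well with the most S-phase genes, 10 of 12, was a BEC well in row E, column 12 of plate A with 159609 reads, and it held 9323 CPM of the keratinocyte gene *Krt14* beside 2187 CPM of *Pecam1*.

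The well with 13 G2/M genes lay in row J, column 22 of plate B of replicate 2. Its 569668 reads made it the deepest well of the replicate, and it held 6274 genes. All 13 genes were above 10 CPM and all 13 remained after thinning to 20000 reads. Highest were *Ccna2* at 1111 CPM, the kinetochore checkpoint kinase *Bub1* at 1095 CPM and the spindle assembly factor *Tpx2* at 1009 CPM. They were followed by the kinetochore motor *Cenpe* at 711 CPM, the anaphase activator *Cdc20* at 706 CPM, *Mki67* at 681 CPM (388 reads), the survivin gene *Birc5* at 546 CPM and the mitotic cyclin *Ccnb1* at 448 CPM. *Bub1b* stood at 358, *Ccnb2* at 295, *Aurka* at 274, *Aurkb* at 121 and the spindle motor *Kif11* at 77.2 CPM. Summed, the 16 genes came to 7432 CPM, against a mean of 31.9 CPM in the other BEC wells of the replicate. *Top2a*, *Cdk1* and *Plk1* had no read.

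**Figure D3:**
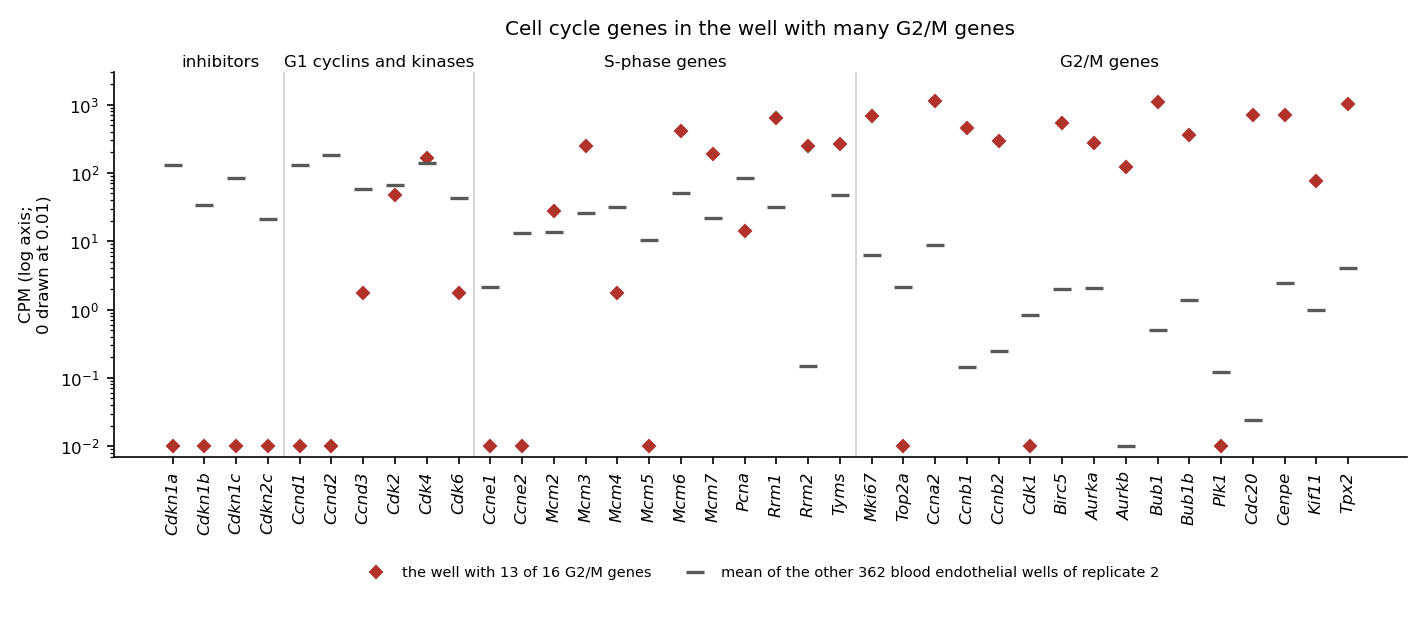
CPM of each of the 38 genes on a log axis in the well with 13 of 16 G2/M genes (diamonds) and the mean of the other 362 blood endothelial wells of replicate 2 (bars), with 0 drawn at 0.01. The 13 G2/M genes read lie between 77.2 and 1111 CPM, far above the means, while the 4 inhibitors, *Ccnd1* and *Ccnd2* lie at 0.

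In the same well 9 of 12 S-phase genes were read, with *Rrm1* at 646, *Mcm6* at 405, *Tyms* at 269, *Mcm3* at 251, *Rrm2* at 248, *Mcm7* at 191 and *Pcna* at 14.0 CPM, and without *Ccne1*, *Ccne2* and *Mcm5*. *Cdk4* stood at 165 and *Cdk2* at 47.4 CPM. *Ccnd1*, *Ccnd2* and all 4 inhibitors had no read. The absence of inhibitors alone does not set this well apart, since 18 of the 77 other BEC wells with at least 200000 reads lacked them too. Of 30 further G2/M genes listed for the pathway, 25 were read, at a sum of 7994 CPM against 271 CPM in the other BEC wells. Of 18 further S-phase genes 9 were read, and of 19 Rb, E2F and DREAM genes 5. *Pecam1* stood at 2375 CPM, *Cdh5* at 262 CPM and *Flt1* at 1216 CPM, with *Kdr* at 12.3 CPM. Immune and keratinocyte markers had no read, 4 of 10 mural markers summed to 21.1 CPM, and *Flt4*, at 169 CPM, was the only lymphatic marker read. Dissociation-induced genes summed to 660 CPM, against 7340 CPM in the other BEC wells.

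A second well with many G2/M genes lay outside the limits, in row L, column 12 of plate A of replicate 1. It held 8408 genes, above the limit of 8000, on 388030 reads, and 18 wells of the replicate were deeper. It had 12 of 16 G2/M genes, 9 of them after thinning, and 10 of 12 S-phase genes. *Krt14* stood at 2966 CPM, beside 353 CPM of *Pecam1*. The 5 keratinocyte markers came to 5020 CPM together, against a mean of 101.1 CPM and a median of 0 in the BEC wells of the replicate. The 10 mural markers summed to 1139 CPM, below the 1356 CPM of those wells. Whether it held more than 1 cell was not tested.

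Wells in the same plate row or column as either well had more G2/M genes than other wells of the plate. On plate B of replicate 2, the 38 such wells averaged 1.42 G2/M genes against 0.299 in 345 others, 23.7% against 74.5% had none, and 7 wells against 1 had at least 3. *Bub1* was read in 8 of 38 wells against 0 of 345, *Cdc20* in 5 against 0 and *Ccnb2* in 3 against 0. Of the 49 gene and well pairs with a read of the 13 genes, 45 had 1 or 2 reads. Such a well had a read of 1.29 of the 13 genes on average, against 0.258 elsewhere, and of 0.132 of the 3 G2/M genes not read in the well itself, against 0.0406. On plate A of replicate 1 the averages were 1.37 and 0.751 genes, and 37 of 47 pairs had 1 or 2 reads. Of the 12 genes read in that well, 1.24 were read per well against 0.632, and of the 4 not read in it, 0.132 against 0.119. Wells in these rows and columns were also deeper, with medians of 57400 against 36807 and 216722 against 182091 reads. The cause was not tested.

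**Figure D4:**
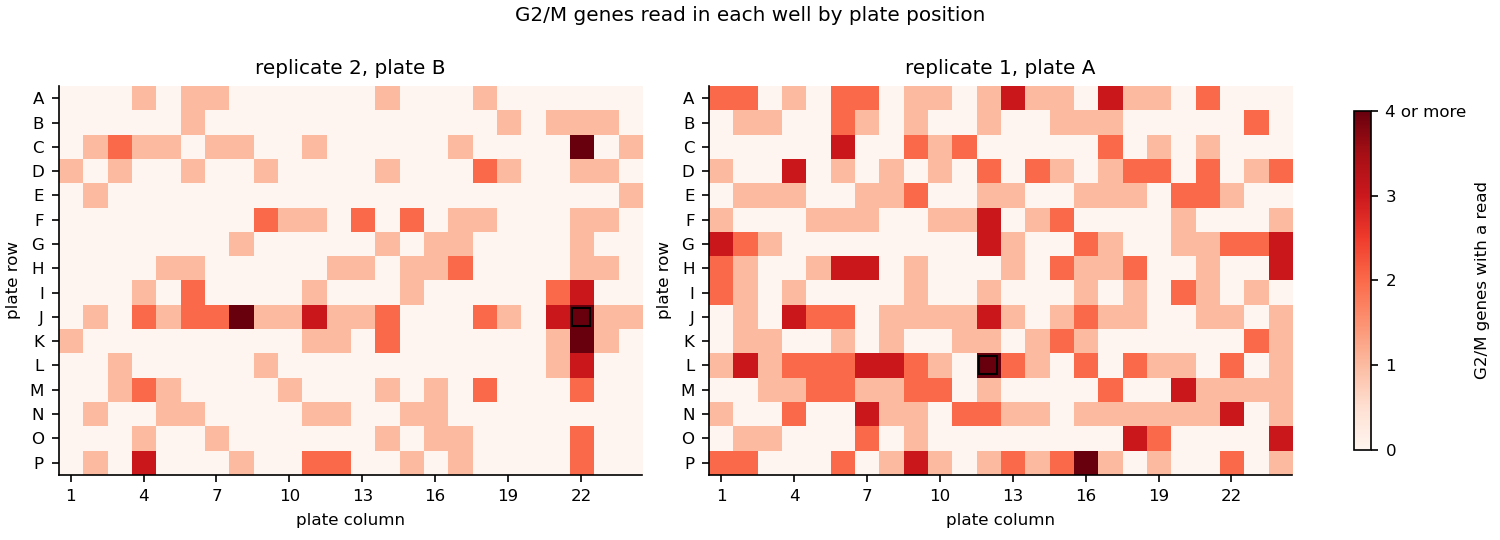
Number of G2/M genes with a read in each well of plate B of replicate 2 and plate A of replicate 1, by plate row and column, with a colour scale that ends at 4 or more. Black squares mark the wells with 13 and 12 genes, and their rows and columns hold a larger share of wells with 1 or more genes than the rest of the plates.

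Without the well with 13 genes, the means of several G2/M genes in BEC wells of replicate 2 fell close to 0. *Cdc20* went to 0.0242 CPM, *Ccnb1* to 0.146 CPM and *Bub1* to 0.507 CPM, and *Aurkb* had no read left, so that the level of these 4 genes in BEC wells of replicate 2 rested mostly on that well. *Mki67* went from 8.21 to 6.35 CPM in 7 wells, and its highest well was another one.

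By the median share of wells, G1 genes and inhibitors were read most widely in lymphatic wells and G2/M genes least, as in BEC wells. The 4 inhibitors summed to 270 and 106 CPM, the 3 D cyclins to 230 and 191 CPM, and the 16 G2/M genes to 29.1 and 53.5 CPM. Most of the G2/M sums, 24.6 and 35.7 CPM, was *Ccna2*, whose reads are uncertain because of the overlap with *Exosc9*. *Cdkn1a* averaged 162 and 46.7 CPM in 84.6% and 24.1% of lymphatic wells, and *Ccnd1* 10.5 and 78.1 CPM in 61.5% and 28.3%. *Mcm4* had no read in the 13 wells of replicate 1 and averaged 5.07 CPM in replicate 2, against 27.3 and 31.3 CPM in BEC wells. *Mki67* was read in 0 and 3 wells and *Top2a* in 0 and 3. In total 13 of the 38 genes had no read in lymphatic wells of replicate 1, where only 13 wells were at hand, and 7 had none in replicate 2. Dissociation-induced genes were also lower in lymphatic wells, at 5222 and 3095 CPM, and their part was not tested.

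In mural-mixed wells, too, G1 genes and inhibitors had the highest median shares of wells and G2/M genes the lowest. Inhibitors summed to 421 and 253 CPM, D cyclins to 481 and 370 CPM, and G2/M genes to 43.2 and 81.9 CPM. The largest part of the G2/M sums was *Ccna2* at 16.6 CPM in replicate 1 and *Birc5* at 31.9 CPM in replicate 2. *Cdkn1a* averaged 303 and 147 CPM in 93.2% and 31.5% of wells, *Cdk4* 239 and 194 CPM, and *Ccnd2* 263 and 211 CPM. *Mcm6* averaged 66.2 and 3.59 CPM, against 124 and 51.6 CPM in BEC wells. *Mki67* was read in 12 and 1 wells and *Top2a* in 29 and 1. These wells held 9041 and 6391 CPM of mural markers and 6578 and 2154 CPM of blood endothelial markers, so the cell type behind each read cannot be told apart.

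**Figure D5:**
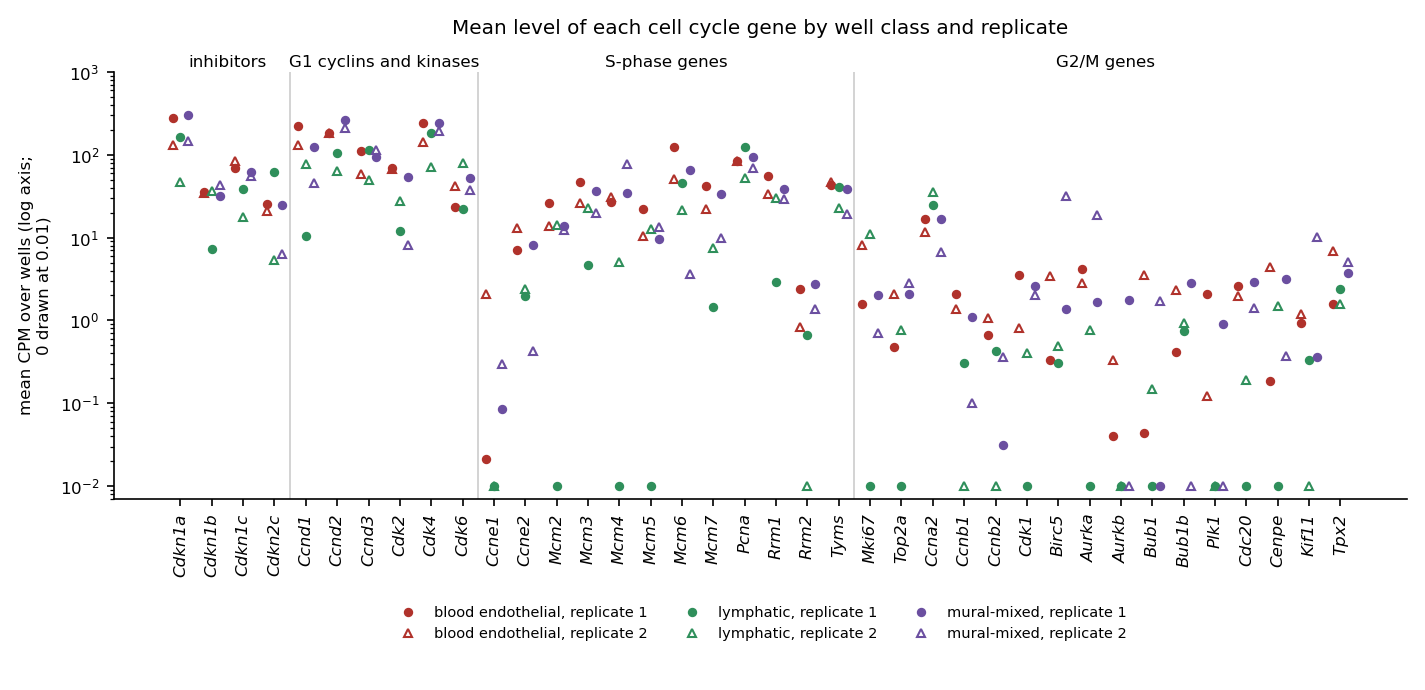
Mean CPM of each of the 38 genes on a log axis in blood endothelial, lymphatic and mural-mixed wells, by colour, with filled circles for replicate 1, open triangles for replicate 2 and 0 drawn at 0.01. Inhibitors and G1 genes lie mostly between 10 and 300 CPM in all 3 classes, and most G2/M genes below 10 CPM.

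To ask whether the cell cycle genes differed between classes beyond the spread of the replicates, reads were summed per class and replicate and compared with edgeR's quasi-likelihood test across all genes. In lymphatic against BEC wells, 0 of 36 cell cycle genes tested were called at an adjusted p under 0.05, against 0.451% of 19055 genes, and *Bub1* and *Ccne1* had too few reads to be tested. By unadjusted p under 0.05, 3 of 36 were lower in lymphatic wells and none higher, against 9.41% of all genes in either direction and 6.39% lower. The 3 were *Mcm4*, *Aurka* and *Cdc20*. *Mcm4* had a log2 fold change of -3.64 (SE 1.397, edgeR adjusted p = 0.472), or -2.002 without replicate 1 and -13.47 without replicate 2. The kinase *Aurka* stood at -5.34 (SE 2.31, edgeR adjusted p = 0.517) and *Cdc20* at -6.16 (SE 2.47, edgeR adjusted p = 0.497), which came to -2.19 (edgeR adjusted p = 0.852) without the well with 13 G2/M genes. The direction of *Aurka* turned, to 1.48, when wells were classed at 10 CPM of genes of other cell types in place of 100 CPM. That limit left 18 BEC wells and 1 lymphatic well in replicate 1. The value of *Aurka* was -3.93 without replicate 1 and -10.56 without replicate 2. DESeq2's Wald test called 2 of 31, *Aurka* at -4.74 (adjusted p = 0.0365) and *Mcm4* at -3.63 (adjusted p = 0.0485), against 7.57% of all genes by the same test, so this count is near its background. Over the 36 genes, 32 fold changes were negative, as were 11670 of the 19055 genes tested, with a median of -1.57 against -0.45 over all genes tested. *Ccnd1* came to -2.24 (SE 1.02, edgeR adjusted p = 0.531), with -0.81 without replicate 1 and -4.65 without replicate 2, and *Cdkn1a* to -0.79 (SE 0.49, edgeR adjusted p = 0.635), which turned to 1.04 at the limit of 10 CPM.

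In mural-mixed against BEC wells, edgeR called 0 of 36 cell cycle genes, against 0.0997% of 19055 genes, and 0 of 36 had an unadjusted p under 0.05, against 4.09%. DESeq2 called 0 of 34, against 2.68%. The median log2 fold change was -0.12, the same as over all genes tested, with 16 positive and 20 negative values. *Cdkn1a* came to 0.19 (SE 0.48) and *Mcm6* to -2.23 (SE 1.07), both with an edgeR adjusted p of 0.9999. *Cdkn1a* turned to -0.011 at the limit of 10 CPM and to -0.29 on plates B alone, and *Mcm6* came to -0.76 at that limit, -4.22 without replicate 1 and -1.09 without replicate 2.

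Among BEC wells, 2 and 12 were led by artery markers, 256 and 47 by capillary markers and 20 and 33 by vein markers. Between artery-marker and vein-marker wells, edgeR called 0 of 31 cell cycle genes, against 0.139% of 13668 genes. *Tyms* alone had an unadjusted p under 0.05, with a log2 fold change of -6.66 (SE 2.32, edgeR adjusted p = 0.448), against 11% of all genes. DESeq2 called 2 of 24, *Tyms* at -5.98 (adjusted p = 0.0114) and *Ccne2* at 4.50 (adjusted p = 0.0405), against 13.2% of all genes. *Tyms* was at 0 and 1.84 CPM of the summed reads in artery-marker wells and at 49.3 and 146 CPM in vein-marker wells. The 2 artery-marker wells of replicate 1 leave these values with little support.

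A further 84 genes of the pathway were listed by role, namely the Rb, E2F and DREAM genes, other CDK inhibitors, antiproliferative genes, and other S-phase and G2/M genes. None was called by edgeR in any of the 3 comparisons. In lymphatic against BEC wells 11 of 79 had an unadjusted p under 0.05, 9 of them lower in lymphatic wells, and DESeq2 called 5 of 70, against the 9.41%, 6.39% lower and 7.57% of all genes given above. In mural-mixed against BEC wells these counts were 2 of 79 and 0 of 75, against 4.09% and 2.68% of all genes, and in artery-marker against vein-marker wells 7 of 68 and 5 of 42, against 11% and 13.2%. With 2 replicates and SEs of the 36 log2 fold changes of 0.49 to 4.97 in lymphatic and 0.48 to 3.74 in mural-mixed against BEC wells, large differences in single genes could pass without a call.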

How the data were processed

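The 38 genes, the marker and pathway lists and the tests were chosen with earlier results of these data known. The authors deposited raw counts of reads per gene and well: single 50-bp reads, aligned to mm10 with TopHat2 2.1.1, freed of duplicated reads with SAMtools 0.1.18 and counted with Subread 1.4.6-p5 (submitters' notes), without strand. Plates A and B held 74739095 and 63091443 reads in replicate 1, and 31864976 and 35546726 in replicate 2. The 92 spike-in sequences stayed out. Of 46517 gene identifiers, 512 had no symbol in the GENCODE annotation of mm10. No doublet caller was run, and the limit of 8000 genes was the only guard.

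Counts were summed per replicate and class. Genes with at least 10 counts in 2 or more of the 6 sums entered edgeR 4.0.16 (quasi-likelihood test, TMM factors, a block for the replicate), and p-values were adjusted by Benjamini-Hochberg over every gene that entered. The block follows the design, since all classes of 1 replicate were taken from its own plates. Deviations of same-numbered sums from their class means correlated at 0.126, 0.106 and 0.00748, and at 0.0309, 0.0735 and 0.118 for the vessel classes. Cells of a pool are not replicates. With the block, p-values rest on how far class differences varied between the 2 replicates, which may be technical. BEC wells were led by artery, capillary or vein markers where 2 more markers of that list than of any other reached 100 CPM. Shares carry exact binomial (Clopper-Pearson) 95% intervals, and where a count was 0 the share that 3 wells make up is given. A gene is given with values where read in at least 10% of BEC wells of both replicates, beside *Mki67*, *Top2a* and the 4 inhibitors. Other genes are given by range and count, and those of wells with at least 8 G2/M genes individually. *Rrm2*, *Ccne1*, *Ccne2* and single genes in rows and columns were named after their values were seen. Of the scripts, only the fits were tested, on simulated counts with known fold changes. In lymphatic against BEC wells edgeR recovered 0 of 46 genes changed 4-fold, 3 of 47 changed 8-fold and 16 of 48 changed 16-fold. In artery-marker against vein-marker wells edgeR recovered 0 of 47 genes changed 16-fold. Alternatives used DESeq2 1.42.0, limma 3.58.1 (log2 of mean CPM, pseudocount 1) and scran 1.30.0 under R 4.3.3, and Python 3.11.15.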

Additional observations from a re-analysis of the deposited data

Results flagged for a closer look

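Of the 38 genes compared over the 4 plates in BEC wells, 4 had 1 plate that stood far from the other 3, by Dixon's 95% critical value. Chance alone flags about 1 in 20 where values are normally spread, which does not hold for means near 0 carried by single wells. In all 4 genes the plate that stood apart was plate B of replicate 2. *Bub1* averaged 6.57 CPM there and at most 0.284 CPM on the other plates, *Cenpe* 8.50 CPM against at most 0.316 CPM, and *Aurkb* 0.648 CPM against at most 0.0450 CPM. The highest well of these 3 genes was the well in row J, column 22 of that plate, and without it the plate averaged 0.718 CPM of *Bub1*, 4.72 CPM of *Cenpe* and 0 of *Aurkb*. *Ccne1* averaged 3.55 CPM against at most 0.568 CPM, but this rested on a single other well, at 664 CPM, of only 2 BEC wells of the replicate with a *Ccne1* read.

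Among wells that entered no comparison, the well above the limit of 8000 genes on plate A of replicate 1 had a read of 12 of the 16 G2/M genes, while no well within the limits on that plate had more than 4.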

How the results depend on the processing

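In lymphatic, mural-mixed and artery-marker comparisons, in this order, 86, 19 and 19 genes were called as reported. These include genes that set the classes, *Prox1* and *Lyve1*, *Pdgfrb* and *Kcnj8*, and vessel markers such as *Gja4*, *Hey1*, *Selp* and *Sele*. The counts were 1107, 422 and 1244 with DESeq2's Wald test, 425, 155 and 62 with no filter on low counts, and 290, 103 and 44 in thinned wells. Plates A alone gave 40, 6 and 9, and plates B alone 165, 31 and 30. A limit of 10 CPM for genes of other cell types gave 12, 2 and 231, one of 300 CPM gave 171 in the first, and all 3 endothelial genes required gave 177, 43 and 6. Without the replicate block 17, 0 and 5 genes were called by edgeR, with 2016, 811 and 2166 at an unadjusted p under 0.05. With mean CPM per well, limma called 0, 0 and 0, with 2171, 618 and 2716 unadjusted. Leaving out wells in the row or column of a well with at least 8 G2/M genes, a choice made after seeing the data, gave 10 in mural-mixed and 5 in artery-marker against vein-marker wells. Of the cell cycle genes, 0 were called under each of these settings, except 2, 0 and 2 by DESeq2. The causes were not tested.

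Of the 10 gene and comparison pairs run, signs turned for 3, none past the threshold. *Aurka* came to 1.48 and *Cdkn1a* to 1.04 in lymphatic against BEC wells at the limit of 10 CPM, and *Cdkn1a* in mural-mixed wells to -0.011 at that limit and to -0.29 on plates B alone. Leaving out a replicate left no residual degrees of freedom, so it gave values only, of -1.32 and -0.31 for *Cdkn1a*, -2.002 and -13.47 for *Mcm4*, -0.81 and -4.65 for *Ccnd1*, -3.93 and -10.56 for *Aurka*, -4.22 and -1.09 for *Mcm6* and -6.19 and -12.44 for *Tyms*. With no upper limit on genes, 2 wells in place of 1 had many G2/M genes, and the count stayed at 1 with at least 5 or 12 genes, at 10 CPM, thinned, and at either limit. Genes read in 10% of BEC wells of both replicates numbered 11 to 15 over the alternatives, and those at 10 CPM 17 to 20. Of 76 levels, 34 moved by more than the SD between the replicates at the limit of 10 CPM, 31 on plates A alone, 29 on plates B alone and 18 on thinning, and of 76 shares 37 moved on thinning and 27 at the limit of 10 CPM. Leaving out the highest well of each gene, chosen after seeing the data, moved the mean by over 1.5 times, or left no read, for 15 of 38 genes in replicate 1 and 19 in replicate 2.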
